A study of Homo sapiens with 6 samples.

Results

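Translation initiation factors are the proteins that bring the small ribosomal subunit, the initiator tRNA and an mRNA together and join the large subunit at the start codon. The genes described here are the rows of the deposited table whose names start with EIF1 to EIF6, without the eIF2 kinases (EIF2AK) and without names ending in P and a number, which mark most pseudogenes. These are 50 of 35410 genes, of which 48 are protein coding and 2 are long non-coding RNAs next to a factor gene, EIF1B-AS1 and EIF3J-DT. The name rule dropped 61 pseudogenes and also EIF4EBP1 and EIF4EBP2, whose names only look like pseudogene names and which are described with the regulators below.

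The data come from SEM, an established human B cell precursor leukemia line of proB type that carries the KMT2A::AFF1 fusion. MACE-Seq, which sequences the 3′ ends of polyadenylated transcripts, was done on 3 biological replicates of SEM::mock, transfected with an empty vector, and 3 of SEM::EGR3, in which the transcription factor EGR3 is expressed from an inducible vector. All 6 cultures received 1 µg/mL doxycycline for 48 h. There is 1 line per vector, so that EGR3 and any other difference between these lines cannot be told apart.

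Counts over the listed genes totalled 5286115 to 6181388 per SEM::mock library and to 7293092 to 15106018 per SEM::EGR3 library, so low genes were measured less precisely in SEM::mock. EGR3 itself had 6 to 10 counts in the SEM::mock libraries and 4952 to 9768 in the SEM::EGR3 libraries. The labelled cell type was checked against marker lists in TMM-normalized CPM (counts per 1000000 counts, scaled between libraries by edgeR). The 15 B-lineage markers summed to 2.99 to 6.25 CPM in SEM::mock, where 12 of them, among them PAX5, CD79A, EBF1 and IGHM, had at most 3 counts in every library, and to 689 to 720 CPM in SEM::EGR3, where DNTT, BLNK and RAG2 were at that limit. Of these markers 11 rose and 0 fell. The 19 erythroid and megakaryocyte markers in the table summed to 5518 to 5798 CPM in SEM::mock and to 6399 to 6642 CPM in SEM::EGR3, 4 rose and 11 fell, and HBB, AHSP and HBE1 had at most 3 counts in all 6 libraries. HBZ, an embryonic globin, and GATA1, an erythroid and megakaryocyte transcription factor, were abundant in both lines. All 11 KMT2A fusion targets rose, from 199 to 217 CPM in sum to 1421 to 1528 CPM. The 9p21 genes CDKN2A, CDKN2B and MTAP had at most 3 counts in every SEM::mock library and summed to 173 to 176 CPM in SEM::EGR3. Myeloid markers summed to 295 to 305 CPM in SEM::mock and 233 to 236 CPM in SEM::EGR3, T cell markers to 60.5 to 66.4 and 111 to 120 CPM, and epithelial and fibroblast markers to 878 to 917 and 582 to 619 CPM. The part of these differences in the values below was not tested, and in such bulk libraries fewer cells of a type and less RNA per cell cannot be told apart.

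Initiation runs in an ordered series of steps. eIF1, eIF1A, eIF3 and eIF5 bind the 40S subunit, eIF2 delivers the initiator methionyl-tRNA as a complex with GTP, and eIF2B recharges eIF2 with GTP after each round. The cap-binding complex eIF4F, made of eIF4E, eIF4G and the helicase eIF4A, recruits the mRNA, and eIF5B then joins the 60S subunit. Leukemic blasts, like other fast-growing cells, make large amounts of protein, and the kinases that phosphorylate eIF2 and the mTOR pathway, which releases eIF4E from its binding proteins, are the main controls of this step.

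Most initiation factor genes differed between the lines, by small amounts and in both directions. Of the 50 genes, 47 had enough counts to be tested. In SEM::EGR3, 15 of them rose (31.9%) and 22 fell (46.8%) by edgeR's quasi-likelihood test at an adjusted p under 0.05 (Benjamini-Hochberg over all 15465 tested genes), and 10 did not pass. Over all tested genes, 36.5% rose and 32.0% fell, together 68.5%, so that a call as such sets no gene apart in this comparison. The libraries of both lines did not overlap for 39 of the 47 genes (83.0%), against 70.1% of all tested genes. Large changes were few among the initiation factors. A call with a log2 fold change of 0.5 or more in size was made for 14 of 47 (29.8%), against 46.0% of all tested genes, and one of 1 or more for EIF5A2 only, against 25.2% of all tested genes. The median absolute log2 fold change was 0.29 for the initiation factors and 0.46 for all tested genes. The median signed log2 fold change was −0.09 for the initiation factors and 0.03 for all tested genes.

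Summed over the 50 genes, initiation factor transcripts made up 9592 to 9854 CPM of a SEM::mock library (9699 ± 138, SD, n = 3) and 8621 to 8678 CPM of a SEM::EGR3 library (8650 ± 28.4, SD, n = 3). The sum in SEM::EGR3 was 0.892 times that in SEM::mock, without overlap of the libraries. Scaled to library totals alone, without TMM, the ratio was 0.940. The genes with the largest drop in mean CPM were EIF1, EIF3I, EIF5A and EIF3B.

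**Figure D1:**
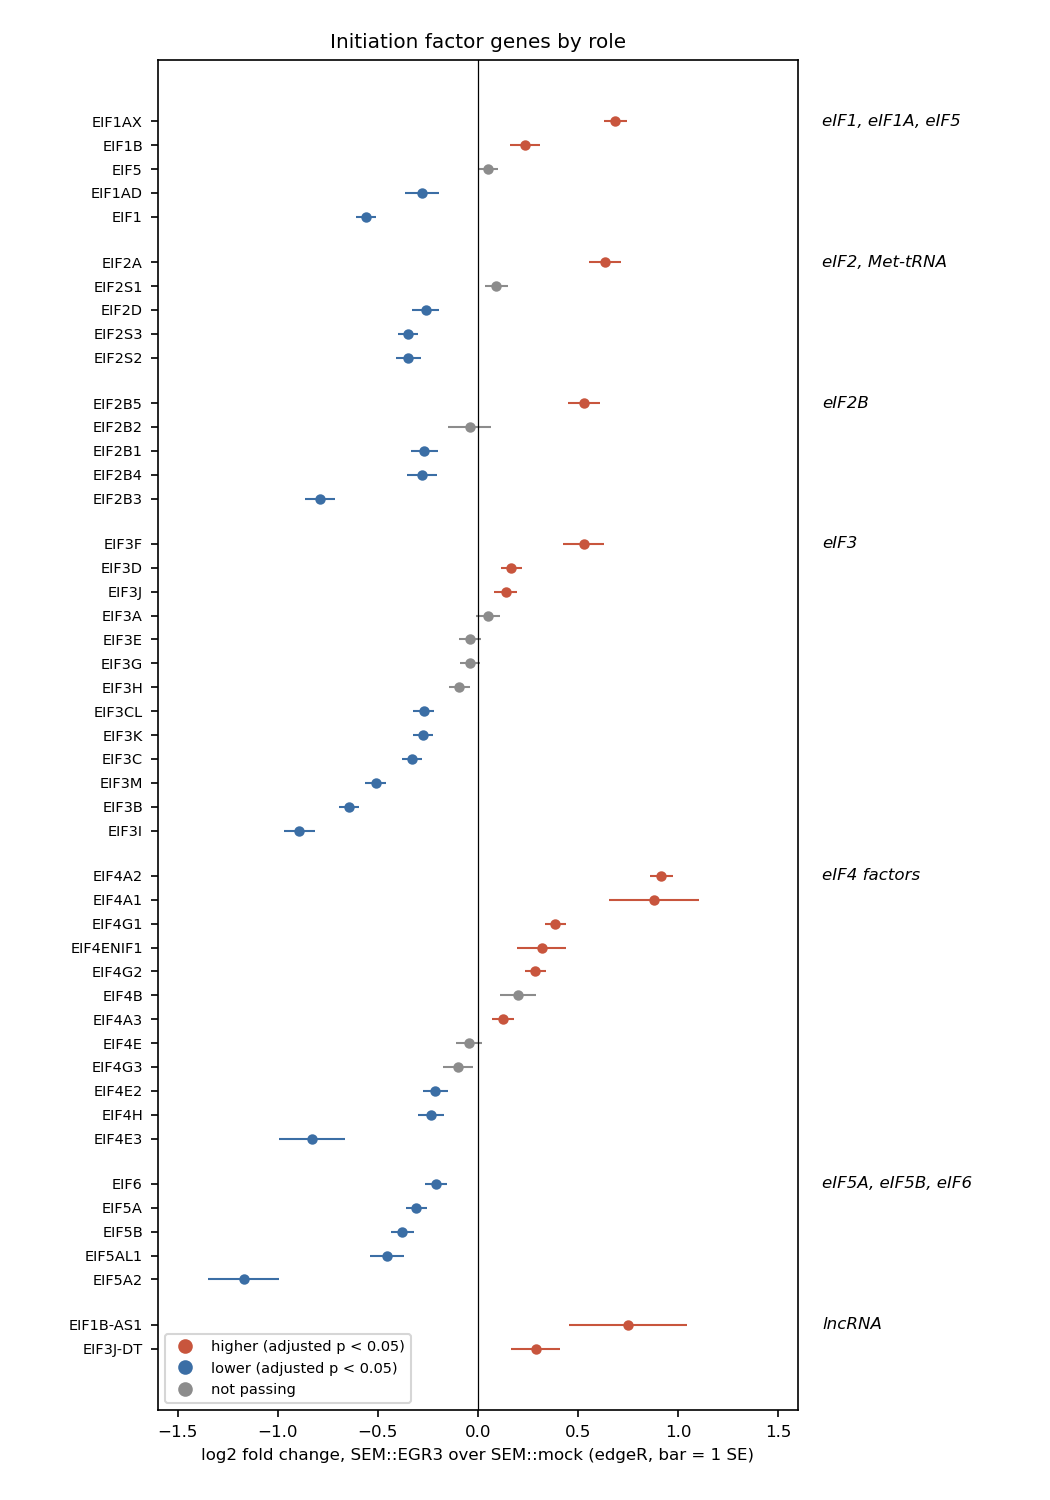
Log2 fold change of the 47 tested initiation factor genes, SEM::EGR3 over SEM::mock, on the horizontal axis, grouped by role. Points are edgeR estimates from 3 libraries per line, bars are 1 SE, and the colour gives the call at an adjusted p under 0.05. All 5 genes of the eIF5A, eIF5B and eIF6 group, among them the retrocopy EIF5AL1, lie below 0. Of the 12 eIF4 genes 6 were called higher and 3 lower, against 36.5% and 32.0% of all tested genes.

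Among the genes for start codon selection, 2 of 5 rose, 2 fell and 1 did not pass, while 36.5% of all tested genes rose and 32.0% fell. The genes for eIF1 and eIF1A moved in opposite directions. EIF1 (chr17:41688885-41692668, GRCh38), whose product keeps the scanning 40S subunit from starting at a wrong codon, was the most abundant member. It had 5508, 6139 and 5412 counts in SEM::mock replicates 1 to 3 and 10994, 4983 and 6306 in SEM::EGR3 replicates 1 to 3. Scaled for depth, its level was 1017 ± 44.3 CPM in SEM::mock and 689.6 ± 19.3 CPM in SEM::EGR3 (mean ± SD of 3 libraries, as in all levels below), a log2 fold change of −0.56 (SE 0.05, adjusted p = 4.56e-10 in edgeR), and the lines did not overlap. EIF1AX (chrX:20124518-20141844), the gene for eIF1A, which binds the decoding site of the 40S subunit, went the other way. Its counts were 740, 766 and 637 in SEM::mock and 3371, 1438 and 1866 in SEM::EGR3. The level rose from 127 ± 2.92 to 205 ± 11.8 CPM (log2fc = 0.69, SE 0.06, adjusted p = 1.51e-10 in edgeR), again without overlap. EIF1B, a close homologue of EIF1, rose by 0.24 on the log2 scale, and EIF1AD, an eIF1A domain gene, fell by 0.28. EIF5, the GTPase activator of eIF2, gave a log2 fold change of 0.05 (SE 0.05).

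Of the 5 tested genes of eIF2 and tRNA delivery, 1 rose, 3 fell and 1 did not pass. The shares over all tested genes were 36.5% higher and 32.0% lower. The 3 subunits of eIF2 did not move together. EIF2S1 encodes the alpha subunit, whose phosphorylation blocks the recharging of eIF2. It had counts of 811, 855 and 737 in SEM::mock and of 2407, 1180 and 1316 in SEM::EGR3, or 143 ± 0.731 and 153 ± 6.95 CPM. The log2 fold change of 0.09 (SE 0.06) had an adjusted p of 0.148 in edgeR and did not pass, although the libraries did not overlap. It passed as higher without normalization factors (0.17, adjusted p = 0.0110) and with at least 10 counts required in every library (0.14, adjusted p = 0.0280). The genes for the other two subunits, EIF2S2 (beta) and EIF2S3 (gamma), both fell, each by 0.35 on the log2 scale, to 292 ± 16.9 and 423 ± 8.27 CPM in SEM::EGR3. EIF2A (chr3:150546678-150584242), which encodes an alternative initiator tRNA binding protein that is not a subunit of eIF2, had counts of 198, 207 and 210 in SEM::mock and of 869, 410 and 547 in SEM::EGR3. All its SEM::EGR3 libraries lay above all SEM::mock libraries once scaled for depth. The level rose from 36.8 ± 3.66 to 57.0 ± 2.80 CPM (log2fc = 0.64, SE 0.08, adjusted p = 1.55e-07 in edgeR). EIF2D, an initiation and recycling factor, fell by 0.26 on the log2 scale. The retrocopy EIF2S3B had 1 to 4 counts in every library and was not tested.

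The eIF2B complex, the exchange factor for eIF2, consists of 5 different subunits. Of their genes 1 rose, 3 fell and 1 did not pass, while 36.5% of all tested genes rose and 32.0% fell. The catalytic part of eIF2B is formed by the epsilon subunit (EIF2B5) and the gamma subunit (EIF2B3), and their transcripts differed in opposite directions. EIF2B5 (chr3:184135038-184146112) had counts of 267, 264 and 226 in SEM::mock and of 960, 551 and 556 in SEM::EGR3. Its level rose from 45.1 ± 1.67 to 65.6 ± 7.21 CPM (log2fc = 0.53, SE 0.08, adjusted p = 2.65e-06 in edgeR), without overlap. EIF2B3 (chr1:44850522-44986722) had counts of 467, 440 and 385 in SEM::mock and of 643, 353 and 420 in SEM::EGR3. It fell from 76.9 ± 4.64 to 45.0 ± 3.22 CPM (log2fc = −0.79, SE 0.07, adjusted p = 8.32e-10 in edgeR), and no SEM::EGR3 library reached the lowest SEM::mock library. The regulatory subunit genes EIF2B1 and EIF2B4 fell by 0.27 and 0.28 on the log2 scale. EIF2B2, also regulatory, gave −0.04 (SE 0.11). The last 500 exonic bases of EIF2B1 and EIF2B2 lie to 100% opposite another gene (DDX55 and AL049780.3), and strand use in counting is not given in the sources used here, so reads of the partner could not be told apart if strand was not used.

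eIF3 is the largest initiation factor, a scaffold on the 40S subunit. Of its 13 tested genes 3 rose, 6 fell and 4 did not pass, and the log2 fold changes ran from −0.89 to 0.53. Over all tested genes 36.5% rose and 32.0% fell. The 6 falls include both EIF3C and EIF3CL, which are identical over the last 300 bases of their transcripts. Their counts could not be told apart, so these falls may not be separate. EIF3I and EIF3B encode subunits that bind each other in a module near the mRNA entry channel, and both fell. EIF3I (chr1:32221928-32231604) had counts of 2338, 2402 and 2147 in SEM::mock and of 2797, 1817 and 2223 in SEM::EGR3. SEM::EGR3 replicate 1 lay below the other two after scaling, and all SEM::EGR3 libraries lay below all SEM::mock libraries. The level fell from 410.5 ± 9.35 to 223 ± 37.3 CPM (log2fc = −0.89, SE 0.08, adjusted p = 3.31e-10 in edgeR). EIF3B (chr7:2354086-2380745) had counts of 1996, 2169 and 1828 in SEM::mock and of 3524, 1693 and 2103 in SEM::EGR3. The level fell from 357 ± 5.29 to 228 ± 2.76 CPM (log2fc = −0.64, SE 0.05, adjusted p = 3.91e-11 in edgeR), with little spread within either line. EIF3G, whose product sits in the same module, gave −0.04 (SE 0.05).

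The genes EIF3M and EIF3F encode subunits of the octameric core of eIF3, and they moved in opposite directions. EIF3M (chr11:32583798-32606262) had counts of 1639, 1794 and 1599 in SEM::mock and of 3362, 1535 and 1902 in SEM::EGR3. It fell from 300 ± 11.9 to 210.4 ± 5.10 CPM (log2fc = −0.51, SE 0.05, adjusted p = 6.71e-09 in edgeR) without overlap. EIF3F (chr11:7970251-8001862) had counts of 184, 187 and 238 in SEM::mock and of 829, 405 and 453 in SEM::EGR3. SEM::mock replicate 3 stood above the other two but below every SEM::EGR3 library. The level rose from 36.7 ± 8.50 to 52.5 ± 2.33 CPM (log2fc = 0.53, SE 0.10, adjusted p = 5.61e-05 in edgeR). Of the other core subunits, EIF3K fell by 0.28 and EIF3C by 0.33 on the log2 scale, whereas EIF3A gave 0.05, EIF3E −0.04 and EIF3H −0.09, none of which passed. EIF3D, a subunit that can bind the cap of some mRNAs, rose by 0.17, and EIF3J, a loosely bound subunit, rose by 0.14, with 37.4% of its last 500 exonic bases opposite SPG11.

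Of the 12 tested eIF4 genes, 6 were called higher, 3 lower and 3 did not pass, while over all tested genes 36.5% rose and 32.0% fell. The number of rises varied with the processing. Alternative fits called 4 to 7 eIF4 genes higher and 2 to 3 lower, and DESeq2 called 4 higher and 3 lower. With pseudogene copies summed, EIF4A1 lost its call (0.13) and EIF4B gained one (0.25). EIF4A2 (chr3:186783205-186789900), one of the genes for the eIF4A helicase, had the highest log2 fold change of all 47. It had counts of 758, 726 and 657 in SEM::mock and of 3651, 1837 and 2205 in SEM::EGR3. The level rose from 128 ± 6.17 to 241 ± 6.09 CPM (log2fc = 0.92, SE 0.06, adjusted p = 3.37e-13 in edgeR), with tight replicates and no overlap. EIF4G1 (chr3:184314495-184335358), the scaffold that holds eIF4E and eIF4A, had counts of 1655, 1634 and 1488 in SEM::mock and of 5677, 2878 and 3344 in SEM::EGR3. Its level rose from 285 ± 10.6 to 373 ± 11.5 CPM (log2fc = 0.39, SE 0.05, adjusted p = 4.90e-07 in edgeR) without overlap. EIF4G2, a scaffold homologue that lacks the eIF4E binding site, rose by 0.29 to 656 ± 21.2 CPM, and EIF4G3 gave −0.10 (SE 0.07) and did not pass. EIF4ENIF1, which encodes a transporter of eIF4E, rose by 0.32, and EIF4A3, a helicase of the exon junction complex, rose by 0.13.

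EIF4E, the cap-binding subunit itself, did not pass the test. It had counts of 504, 540 and 457 in SEM::mock and of 1325, 608 and 845 in SEM::EGR3, or 89.3 ± 0.697 and 86.6 ± 5.86 CPM. Its log2 fold change was −0.05 (SE 0.06, adjusted p = 0.544 in edgeR), and the libraries overlapped. Of the related cap-binding genes, EIF4E2 and EIF4E3 fell, and EIF4E1B was seen in SEM::EGR3 libraries only. EIF4E2 fell by 0.21 on the log2 scale, a call that was lost without normalization factors (−0.14). EIF4E3 (chr3:71675416-71754773) had counts of 54, 70 and 49 in SEM::mock and of 83, 42 and 60 in SEM::EGR3. The level fell from 10.3 ± 1.24 to 5.86 ± 0.665 CPM (log2fc = −0.83, SE 0.17, adjusted p = 9.68e-05 in edgeR), without overlap. EIF4E1B, which is known from oocytes, had 0 counts in all SEM::mock libraries and 30, 8 and 15 in SEM::EGR3. This is at least 2.88-fold higher in SEM::EGR3, set against 3 counts in each SEM::mock library (for counting error only), and the gene was too low to be tested. Of the genes for proteins that stimulate eIF4A, EIF4H fell by 0.24 on the log2 scale and EIF4B gave 0.20 (SE 0.09, adjusted p = 0.0529 in edgeR).

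All 5 genes of the last group, which act at subunit joining and after it, fell, by 0.21 to 1.17 on the log2 scale. Of all tested genes 32.0% fell. The group includes EIF5AL1, a retrocopy 98% identical to the last 300 bases of EIF5A, so the falls of EIF5A and EIF5AL1 may not be separate. EIF5A encodes eIF5A, a protein with the modified amino acid hypusine, which helps the ribosome through difficult peptide bonds. It had counts of 4983, 4718 and 4313 in SEM::mock and of 10614, 5159 and 5920 in SEM::EGR3. The level fell from 835 ± 45.3 to 675 ± 21.04 CPM (log2fc = −0.31, SE 0.05, adjusted p = 1.21e-05 in edgeR) without overlap. Its homologue EIF5A2 (chr3:170888415-170908693) gave the lowest fold change of all 47 genes, at a much lower level. It had counts of 48, 79 and 66 in SEM::mock and of 82, 40 and 42 in SEM::EGR3. SEM::mock replicate 1 was the lowest of its line and still lay above all SEM::EGR3 libraries. The level fell from 11.5 ± 2.65 to 5.09 ± 0.404 CPM (log2fc = −1.17, SE 0.18, adjusted p = 2.83e-06 in edgeR). EIF5B, the GTPase that joins the 60S subunit, fell by 0.38 to 318 ± 8.54 CPM, and its last 500 exonic bases lie to 100% opposite REV1, with the same limit on strand as EIF2B1. EIF6, which keeps free 60S subunits from joining too early, had counts of 1245, 1380 and 1163 in SEM::mock and of 3150, 1422 and 1736 in SEM::EGR3. It fell from 225 ± 5.74 to 195 ± 6.60 CPM (log2fc = −0.21, SE 0.05, adjusted p = 0.00134 in edgeR) without overlap, and 40.8% of its last 500 exonic bases are shared with AL121753.1 on the same strand.

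**Figure D2:**
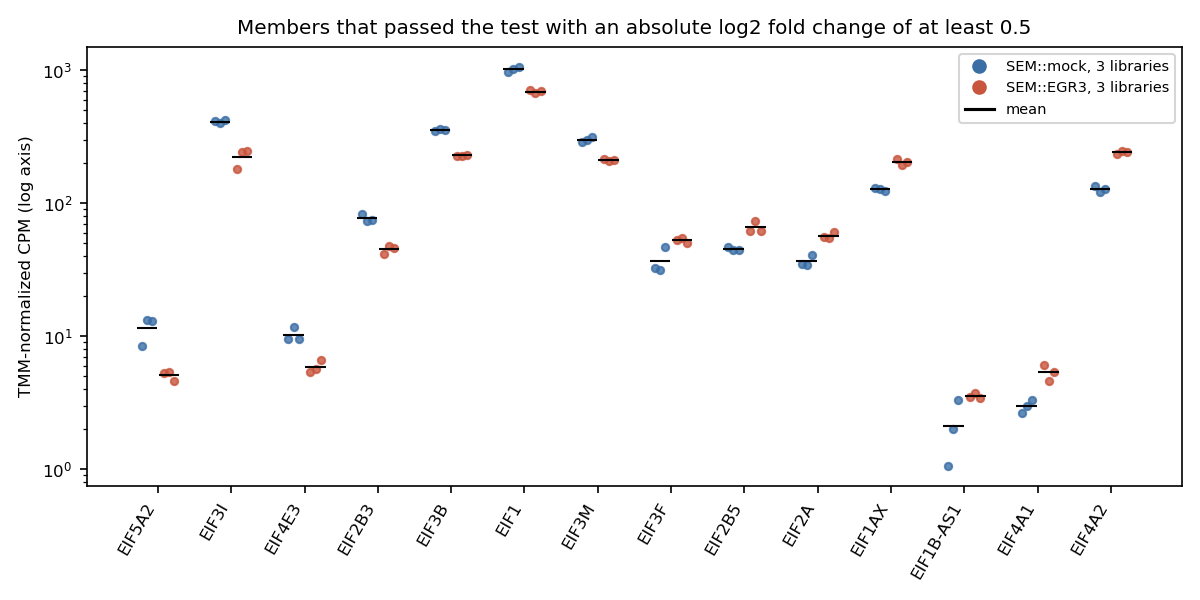
TMM-normalized CPM (log axis) of the 14 genes called with a log2 fold change of 0.5 or more in size, ordered by fold change. Each point is 1 library, 3 per line, and black bars are means. The lines do not overlap for any of the 14 genes, which were selected on these same libraries, so this is no further result. Of all tested genes, 70.1% do not overlap. EIF1B-AS1 and EIF4A1 lie below 10 CPM in all 6 libraries.

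Both long non-coding RNAs were called higher, and each call was lost under DESeq2 and when certain libraries were left out. EIF1B-AS1 (chr3:40173145-40309698), which starts next to EIF1B on the opposite strand, had counts of 6, 12 and 17 in SEM::mock and of 54, 28 and 31 in SEM::EGR3. Its level rose from 2.13 ± 1.14 to 3.55 ± 0.185 CPM (log2fc = 0.75, SE 0.29, adjusted p = 0.0270 in edgeR). Without SEM::mock replicate 1 the log2 fold change was 0.41 and without SEM::mock replicate 2 it was 0.71, and neither passed, while the values over all libraries left out in turn reached 1.17. DESeq2 gave 0.75 with an adjusted p of 0.0899. EIF3J-DT, which starts opposite EIF3J, rose by 0.29 (adjusted p = 0.0407 in edgeR), with overlapping libraries, and 56.6% of its last 500 exonic bases lie opposite CTDSPL2. It was no longer called without SEM::EGR3 replicate 1 (0.12), SEM::mock replicate 1 (0.21) or SEM::mock replicate 2 (0.22), with the replicate number as a block (0.26), or under DESeq2 (0.26, adjusted p = 0.130).

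Some of the smaller increases of protein coding genes were also no longer called when 1 library was left out. DESeq2 did not call EIF4A3, EIF3J or EIF4ENIF1 (adjusted p = 0.0991, 0.0700 and 0.103). EIF4A3 was not called in any fit with 1 library left out, at 0.11 to 0.14 on the log2 scale. EIF3J was not called without SEM::mock replicate 1 (0.13) or 2 (0.08) or SEM::EGR3 replicate 1 (0.14) or 3 (0.13). EIF4ENIF1 was not called without SEM::mock replicate 1 (0.27) or 3 (0.31) or SEM::EGR3 replicate 1 (0.25). Each of these fits has fewer libraries, and the cause of these losses was not tested. EIF1B lost its call without SEM::mock replicate 1 (0.17) or SEM::EGR3 replicate 3 (0.19), and EIF3D lost it without SEM::mock replicate 3 (0.13). In contrast EIF4B passed without SEM::mock replicate 2 (0.33) or SEM::EGR3 replicate 2 (0.22), and EIF3H passed as lower without SEM::mock replicate 1 (−0.14). No decrease was lost when a library was left out.

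Several initiation factor genes have copies elsewhere in the genome, named after them, and reads may be listed under either. How reads with more than 1 match were treated is not given in the sources used here. EIF4A1 (chr17:7572706-7579005), usually the main eIF4A gene, had counts of only 15, 18 and 17 in SEM::mock and of 95, 34 and 49 in SEM::EGR3. As listed it rose from 2.99 ± 0.340 to 5.35 ± 0.771 CPM (log2fc = 0.88, SE 0.22, adjusted p = 0.00124 in edgeR). However, 100% of its last 500 exonic bases are annotated on the same strand for the readthrough gene SENP3-EIF4A1 as well, and 88.0% of the counts of EIF4A1 and its 9 pseudogene copies were listed under the copies. The copies are shorter gene models, 88.1% to 97.0% identical to the EIF4A1 transcript over their own length, but the last 300 bases of EIF4A1 have no close match in them (46.3% to 52.0% by edit distance). Whether reads of EIF4A1 were listed under the copies was thus not settled by these sequences. Summed over gene and copies the log2 fold change was 0.13 (SE 0.09, adjusted p = 0.193 in edgeR) and the call was lost. The listed EIF4A1 value is therefore uncertain in size.

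EIF3L, a core eIF3 subunit, gave the extreme case. It was listed with counts of 2, 2 and 0 in SEM::mock and of 2, 1 and 3 in SEM::EGR3 and was not tested, while 99.2% of the counts of its family were listed under 3 pseudogenes. These are 90.3% to 96.03% identical to the EIF3L transcript over their own length, again without a close match to its last 300 bases (52.0% to 52.7%). All of its last 500 exonic bases are shared on the same strand with AL022311.1. The summed family had a log2 fold change of 0.42 (adjusted p = 0.000441 in edgeR). EIF3C and EIF3CL are identical over the last 300 bases of their transcripts, and their counts could not be told apart either. EIF3C made up 49.2% to 51.2% of the counts of this pair, and the exact 95% binomial interval of the share, which covers counting error only, held 50% in 6 of 6 libraries. Summed, the pair fell by 0.30 (adjusted p = 8.61e-06 in edgeR).

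EIF5A and its retrocopy EIF5AL1 are 98% identical over the same length, so the fall of EIF5AL1 by 0.45 is uncertain. Copies took 43.8% of the EIF3F family and 35.1% of the EIF4B family, mostly EIF3FP3, EIF4BP6 and EIF4BP7, which are 97.5%, 97.7% and 97.0% identical to their parent over their own length and 52.7%, 50.7% and 49.7% over its last 300 bases. With copies added EIF3F was at 0.44 and stayed called, and EIF4B was at 0.25 and passed (adjusted p = 0.00311 in edgeR). The pseudogenes named after a member summed to 582 ± 30.1 CPM in SEM::mock and 523 ± 4.68 CPM in SEM::EGR3. Genes whose last 500 exonic bases lie fully in another gene on the same strand, or that have a near-identical member, were then left out. Of the 42 tested genes that remained, 14 rose and 18 fell, against 36.5% and 32.0% of all tested genes. EIF6, which shares 40.8% of these bases, was kept. The summing of copies, the comparison over their whole length and this exclusion were chosen after the data were seen.

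**Figure D3:**
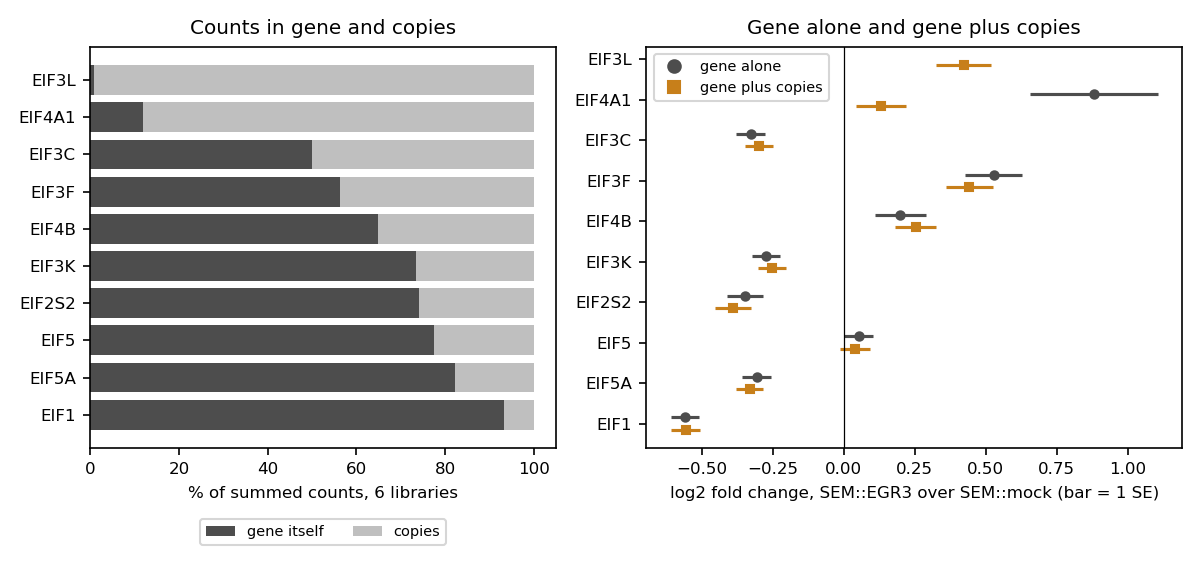
Left, share of the counts summed over 6 libraries (%) listed under each gene and under its copies. Right, log2 fold change, SEM::EGR3 over SEM::mock, of the gene alone and of gene plus copies (edgeR, bars are 1 SE, 3 libraries per line). EIF4A1 moves from 0.88 to 0.13, EIF3L could be fitted only with its copies, and the other 8 genes move little.

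Ratios of related genes within a library do not depend on the scaling between libraries, and 9 pairs were compared. With 3 libraries per line the smallest p of the two-sided exact permutation test is 0.1, so no pair can pass 0.05. Of the 9 pairs, 5 did not overlap between the lines (p = 0.1, adjusted p = 0.18 over the 9 pairs, exact permutation test). Single genes did not overlap in 70.1% of all tested cases, and no such share was computed for ratios of other genes, so the count is a description. The counts of EIF1 were 21.4 to 22.5 times those of EIF1B in SEM::mock and 11.9 to 13.3 times in SEM::EGR3, a change of −0.79 on the log2 scale. The EIF5A to EIF5A2 ratio was 59.4 to 103 in SEM::mock and 127 to 139 in SEM::EGR3 (0.84 on the log2 scale). The EIF4G1 to EIF4G3 ratio shifted by 0.49 and the EIF4G1 to EIF4G2 ratio by 0.10 on the log2 scale. The ratio of EIF2B5 to EIF2S1 was 0.307 to 0.330 in SEM::mock and 0.399 to 0.467 in SEM::EGR3 (0.44 on the log2 scale). EIF2B5 encodes a catalytic subunit of the exchange factor, and EIF2S1 the subunit that inhibits it when phosphorylated. Of the 5 eIF2B genes only EIF2B5 was called higher and 3 were called lower, so this ratio does not stand for the whole complex.

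The other 4 ratios overlapped. EIF4EBP1 to EIF4E, the repressor and the cap-binding protein it holds, had a mean ratio of 1.46 in SEM::mock and 1.64 in SEM::EGR3 (p = 0.4, exact permutation test). The ratios EIF4E to EIF4E2, EIF4A1 to EIF4A2 and EIF4EBP1 to EIF4EBP2 differed by 0.16, −0.11 and −0.04 on the log2 scale.

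**Figure D4:**
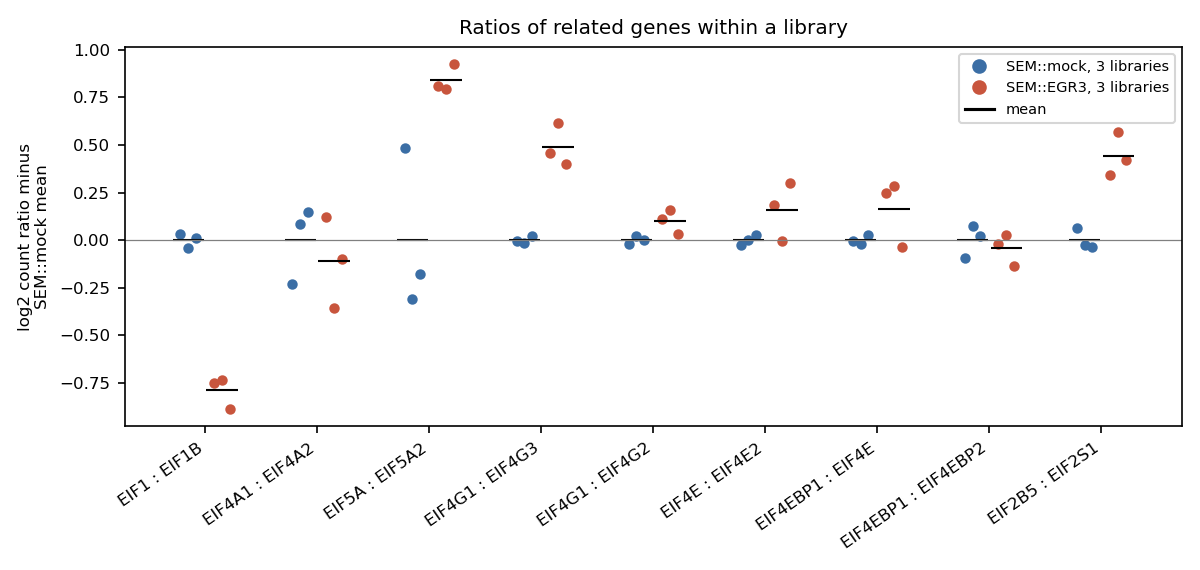
Log2 ratio of counts of 2 related genes within each library, minus the SEM::mock mean of that pair. Points are libraries, 3 per line, and black bars are means. EIF1 to EIF1B lies lower and EIF5A to EIF5A2, EIF4G1 to EIF4G3, EIF4G1 to EIF4G2 and EIF2B5 to EIF2S1 lie higher, with no SEM::EGR3 library inside the range of SEM::mock.

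The regulators of initiation and the other translation factors were read from a list of 51 genes in the table, of which 50 were tested. Of these 11 rose, 18 fell and 21 did not pass, so 58.0% were called, against 68.5% of all tested genes. The 4 kinases that phosphorylate eIF2 alpha did not move together. EIF2AK1, the heme-regulated kinase, had counts of 1095, 1271 and 979 in SEM::mock and of 1571, 807 and 883 in SEM::EGR3 and fell from 199 ± 11.6 to 102 ± 5.63 CPM (log2fc = −0.96, adjusted p = 4.26e-13 in edgeR). EIF2AK3 (PERK), the kinase of the unfolded protein response, had counts of 52, 44 and 42 in SEM::mock and of 262, 106 and 135 in SEM::EGR3 and rose from 8.23 ± 0.906 to 15.3 ± 1.36 CPM (log2fc = 0.92, adjusted p = 3.39e-06 in edgeR). The lines did not overlap for either kinase. EIF2AK2 (PKR) and EIF2AK4 (GCN2) were both at −0.02 and did not pass. Of the genes for eIF4E-binding proteins, which block eIF4F until mTOR phosphorylates them, EIF4EBP2 rose by 0.16 (adjusted p = 0.0156 in edgeR) and EIF4EBP1 gave 0.12 (adjusted p = 0.0682). EIF4EBP2 did not pass without SEM::mock replicate 2 (0.11) or 3 (0.15) or SEM::EGR3 replicate 1 (0.15), while EIF4EBP1 passed without SEM::EGR3 replicate 3 (0.17). The kinases of eIF4E itself split, with MKNK2 up and MKNK1 down, at log2 fold changes of 0.9999, just under 1, and −0.68, a pair named after its values were seen.

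In the rest of the list, 0 of 7 tested mTORC1 and S6 kinase genes rose, 3 fell and 4 did not pass. Over all tested genes 36.5% rose and 32.0% fell. The 3 that fell were MTOR, RPTOR and AKT1S1, by 0.28 to 0.47 on the log2 scale, named after their values were seen. Neither of the 2 genes for the enzymes that put hypusine on eIF5A passed. Only 3 genes of the list were called with a log2 fold change of 1 or more in size. CYFIP2, whose product is a partner of the FMRP protein and of the actin-regulating WAVE complex, had counts of 5, 2 and 1 in SEM::mock and of 713, 357 and 409 in SEM::EGR3 (log2fc = 6.55, SE 0.21, adjusted p = 5.27e-19 in edgeR). EEF1A2, a tissue-restricted elongation factor, had counts of 47, 36 and 38 in SEM::mock and of 41, 28 and 22 in SEM::EGR3 (log2fc = −1.34, SE 0.22, adjusted p = 6.49e-06 in edgeR). The mitochondrial initiation factor gene MTIF3 had counts of 196, 185 and 135 in SEM::mock and of 925, 481 and 608 in SEM::EGR3 (log2fc = 1.04, SE 0.09, adjusted p = 1.05e-10 in edgeR). The common elongation factor gene EEF1A1 gave −0.04 and did not pass.

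Many mRNAs of the translation machinery begin with a C followed by a run of pyrimidines, the terminal oligopyrimidine (TOP) start that ties their translation to mTOR. A TOP-like start, at least 5 pyrimidines from a C at the annotated first base, was found in 10 of the 43 initiation factor genes with a RefSeq promoter (23.3%), against 5.38% of 10342 promoters of tested genes and 4.04% of all 27305 promoters. The starts of 6 of these genes are shown, 3 that rose and 3 that fell, to let their letters be compared. Each line holds 20 bases before the RefSeq start and 10 from it (GRCh38.p14, plus strand, 5′ to 3′), with the pyrimidine run from the start in capitals.
EIF4A2 (chr3:186783557-186783586): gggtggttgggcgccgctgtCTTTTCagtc
EIF3F (chr11:7987317-7987346): gtcatttccgcttccgcctcCTTCTTTCTC
EIF2A (chr3:150546767-150546796): aactctcacccgagcggtttCTCTTTCCgg
EIF3M (chr11:32583811-32583840): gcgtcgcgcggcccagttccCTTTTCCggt
EIF3K (chr19:38619168-38619197): gtcgtttccgtttccaccacCTCTTCCTgt
EIF2S3 (chrX:24054936-24054965): cagccggggtgatttccttcCTCTTTTggc

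TOP-like starts were found in genes of either direction. Of the 9 tested genes that hold one, 4 rose (EIF4A2, EIF2A, EIF3F and EIF3D), 4 fell (EIF3M, EIF2S3, EIF3K and EIF2D) and EIF4B did not pass. The shares over all tested genes were 36.5% higher and 32.0% lower. The log2 fold changes of these 9 genes ran from −0.51 to 0.92 with a median of 0.17. The other 32 tested genes with a promoter had a median of −0.15.

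EGR factors bind the GC-rich letters GCGTGGGCG and GCGGGGGCG, and these were searched on both strands in the 250 bases before and 50 after the start. They were found in 2 of the 43 promoters (4.65%), against 9.50% of the promoters of tested genes and 5.70% of all promoters, and in both cases as GCGGGGGCG. The windows are shown because they are the only matches, with the motif in capitals (60 bases of GRCh38.p14, plus strand).
EIF2B2 (chr14:75002724-75002783): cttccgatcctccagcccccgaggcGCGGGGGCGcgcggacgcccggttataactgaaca
EIF4E1B (chr5:176630518-176630577): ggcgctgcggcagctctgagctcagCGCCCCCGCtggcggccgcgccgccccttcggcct
The match lies 172 bases before the start of EIF2B2, which did not pass the test, and 132 bases before that of EIF4E1B, on the other strand, the gene with counts in SEM::EGR3 libraries only. None of the 14 genes with the larger changes held these letters in the window, where they had a promoter in the table.

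The tested members lie on 17 chromosomes. Chromosome 3 holds 8 of the 47 tested genes, of which 6 lie above 0 (EIF4A2, EIF1B-AS1, EIF2A, EIF2B5, EIF4G1 and EIF1B) and 2 are EIF5A2 and EIF4E3. Their median log2 fold change was 0.46, while the other 792 tested genes of chromosome 3 had a median of 0.23, above that of all genes. On chromosome 1 all 4 tested members lay below 0, with a median of −0.52 against −0.13 for the other 1555 genes. Within 2 Mb on each side of EIF4A2, 23 other tested genes had a median of −0.02, with 8 higher and 8 lower. The 11 tested genes near EIF1AX had a median of 0.55, with 6 higher and 1 lower. The window of 2 Mb was chosen after the data were seen, and the part of these regional medians in the values of the members was not tested.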

How the data were processed

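Per the submitters' processing notes, reads were handled with bcl2fastq, Bowtie2 and HTSeq on GRCh38, and the study's methods name DESeq2 for the comparison of the lines. The annotation release, the strand setting, the treatment of reads with several matches and the use of molecular identifiers are not given in the sources used here. Deposited by the authors were raw counts (whole numbers for each gene in each library), CPM values (named TPM, the count divided by a library total, without a length correction) and a size-factor normalized signal. The listed genes hold 73.6% to 75.8% of the library totals behind the CPM values. The deposited log2 fold changes and p-values of the authors' own comparison were not used. The table headers spell the expressed gene ERG3, and these columns were read as SEM::EGR3, since the labels name no other line. All per-sample columns matched a sample of the labels (0 did not).

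Only the counts entered the comparisons, and the CPM and size-factor columns were not tested. Counts were analysed with edgeR 4.0.16 in R 4.3.3 (filterByExpr, TMM, glmQLFit, glmQLFTest, 3 against 3 libraries, no further term), with Benjamini-Hochberg adjustment over 15465 genes and a threshold of 0.05. TMM factors were 0.969 to 0.984 in SEM::mock and 1.02 to 1.03 in SEM::EGR3. On simulated counts of 15047 genes, 99 of 100 changes of 1 and 70 of 100 of 0.5 (absolute log2) were called, with 9 calls among 14847 unchanged genes. The changed genes were few and drawn only from genes above a count limit, whereas 68.5% of tested genes were called in the data. These rates therefore do not give the sensitivity in the data. Within-library ratios (0.5 added to each count) were compared by an exact permutation test. Positions and 3′ overlaps come from GENCODE 29, and promoters from RefSeq (GRCh38.p14), which held 43 of the 50 genes. A gene with at most 3 counts in each library of a line was treated as at the detection limit.

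Counts in every library, levels, SE and adjusted p are given for members called with a log2 fold change of 0.5 or more in size and for EIF4E, EIF4G1, EIF4A1, EIF2S1, EIF5A and EIF6, and other members are named with their fold change. Pathway genes are named when called with one of 1 or more, as are the eIF4E-binding proteins and eIF2 kinases. The members, lists, pairs and motifs were chosen with earlier results of these data known. EIF1AY, EIF2S3L, EIF4EBP3 and EEF1G were not analysed here. Alternatives were DESeq2 1.42.0, other normalizations and filters, the replicate number as a block, each library left out in turn, a minimum fold change, and a pseudocount of 1 for the ratios.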

Additional observations from a re-analysis of the deposited data

How the results depend on the processing

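All 22 falls kept their sign in each alternative in which they were fitted, and all but that of EIF4E2 stayed called (EIF4E2 was at −0.14 without normalization factors and no longer called). The 7 falls of at least 0.5 and the increases of EIF4A2, EIF1AX, EIF2A, EIF3F, EIF2B5, EIF4G1 and EIF4G2 stayed called in each of these fits, a minimum fold change apart, and the other 8 increases were each lost in at least 1 fit, among them EIF4A1 (with copies summed) and EIF1B-AS1. Calls were gained by EIF2S1 and EIF4B in several fits, by EIF5 (0.13) without normalization factors and by EIF3H without SEM::mock replicate 1. With each library left out in turn, 10 to 16 members were higher and 22 to 23 lower, the low of 10 being without SEM::mock replicate 1. DESeq2 called 10 higher and 22 lower. Requiring an absolute log2 fold change of 1 left 0 higher and 1 lower. Without normalization factors the median log2 fold change of members was −0.0166 and the summed level ratio 0.940, while leaving out a library gave ratios of 0.887 to 0.899. Values near 0 that did not pass changed sign. Without normalization factors EIF2AK2 was at 0.0543, EIF2AK4 at 0.0587, EIF2B2 at 0.0352, EIF3E at 0.0389, EIF3G at 0.0370 and EIF4E at 0.0307. With at least 10 counts in every library EIF2AK2 was at 0.0290, EIF2AK4 at 0.0333, EIF2B2 at 0.00954, EIF3E at 0.0139, EIF3G at 0.0126 and EIF4E at 0.00560. With libraries left out EIF2AK2 ranged from −0.0698 to 0.0177, EIF2AK4 from −0.102 to 0.0331, EIF2B2 from −0.122 to 0.0432 and EIF3E from −0.0760 to 0.00571. With copies summed 16 of 46 were higher and 20 lower. The causes were not tested.

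The replicate numbers did not pair the samples. Same-numbered libraries had correlations of −0.24, −0.17 and −0.07 of their deviations from the line means (10136 genes). With the replicate number as a block 12 members were higher and 22 lower, as EIF3J, EIF3J-DT and EIF4A3 lost their calls. Depth limits EIF4E1B, EIF2S3B, EIF1B-AS1, EIF4A1, EIF5A2 and EIF4E3, which had under 100 counts in every library.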
